A study of Mus musculus with 18 samples.

Results

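RNA levels of 8 genes that mark intestinal stem cells or report Wnt signalling (Lgr5, Olfm4, Ascl2, Smoc2, Axin2, Rnf43, Znrf3 and Tnfrsf19) were followed through 18 RNA-seq libraries. They were chosen by symbol from the 53379 genes of the count table, and all 8 were found. The libraries came from female BALB/cJ mice aged 6 to 8 weeks. Every recipient was lethally irradiated. One group received 10000000 bone marrow cells alone (BM) and the other the same marrow with 1000000 T cells (BMT), and tissue was taken on day 7. Bulk liver and isolated epithelial cell fractions of both parts of the intestine were sequenced, with 3 libraries per treatment in each of 3 tissues, so the comparison of BMT with BM asked what the added T cells changed. All groups share the irradiation and the marrow graft, and no unirradiated mice were analysed here.

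The labels of the intestinal libraries conflict. Titles and description codes name opposite regions: a library with small intestine in its title has the code LI, and one with large intestine has the code SI. Markers of region followed the codes. Hoxb13, a homeobox gene of the hindgut, was at 131 ± 14.7 CPM (counts scaled to library size, mean ± SD, n = 3) in the BM libraries coded LI and at 0 in those coded SI, and Fabp6, which encodes a bile acid carrier of the ileum, was at 6.07 ± 3.3 and 6708 ± 1451 CPM in turn. The sets are therefore called code LI and code SI. Library totals ran from 18845483 to 25610937 counts, and the floor of 3 counts stood at 0.117 to 0.159 CPM. Mitochondrial transcripts took 7.3 to 8.63% of counts in code SI BM and 4.83 to 6.01% in code SI BMT, 9.72 to 10.7% and 6.24 to 7.46% in code LI, and 4.22 to 5.26% and 2.77 to 3.08% in liver. Summed T cell markers went from 3.51 to 11.6 CPM in code SI BM up to 171 to 258 CPM in BMT, and from 5.72 to 7.56 up to 347 to 504 CPM in code LI. Summed pan-epithelial genes were at 18552 to 21163 CPM in code SI BM and 20315 to 24758 CPM in BMT, which overlap. In code LI they were at 18911 to 21053 and 22008 to 29976 CPM, with every BMT library above the BM libraries.

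The intestinal lining is renewed from stem cells at the base of the crypts, which divide while Wnt ligands and R-spondins reach them. A Wnt ligand binds Frizzled and Lrp receptors, and beta-catenin then enters the nucleus and switches on target genes together with Tcf and Lef factors. Lgr5 is an R-spondin receptor and the standard marker of these stem cells. Rnf43 and Znrf3 are ubiquitin ligases that remove Frizzled receptors from the membrane, and R-spondins block them. Axin2 is a scaffold of the complex that degrades beta-catenin, so Axin2, Rnf43 and Znrf3 are targets that also restrain the pathway. Ascl2 is a transcription factor of the stem cell state. Smoc2 (a secreted calcium-binding matrix protein), Olfm4 (a secreted glycoprotein) and Tnfrsf19 (a TNF receptor relative) are stem cell markers, and Olfm4 is known to respond to Notch signals. In liver, several Wnt targets are known to be expressed around the central veins.

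On GRCm38, by the annotation in the count table, Lgr5 (ENSMUSG00000020140.15) lies at chr10:115450311-115587780 on the minus strand with 10264 exonic bases, and Ascl2 (ENSMUSG00000009248.6) at chr7:142966829-142969264 on the minus strand with 1623. Olfm4 (ENSMUSG00000022026.7) lies at chr14:79984081-80023139 on the plus strand with 2962 exonic bases, on the same chromosome as Tnfrsf19 (ENSMUSG00000060548.13), at chr14:60963875-61046490 on the minus strand with 4738. Smoc2 (ENSMUSG00000023886.9) lies at chr17:14279506-14404790 on the plus strand with 2832. The 3 feedback genes share chromosome 11 but lie far apart. Axin2 (ENSMUSG00000000142.15) is at chr11:108920349-108950783 on the plus strand with 5506 exonic bases, Rnf43 (ENSMUSG00000034177.15) at chr11:87662722-87735539 on the plus strand with 6558, and Znrf3 (ENSMUSG00000041961.14) at chr11:5276324-5444847 on the minus strand with 7893. Counts were summed over the exons of each gene, so isoforms and UTRs are not separated.

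Promoter sequences were held for 5 of the 8 genes in a RefSeq table (GRCm38.p6, 32851 starts): Ascl2, Axin2, Olfm4, Rnf43 and Tnfrsf19. Lgr5, Smoc2 and Znrf3 had no entry. The 250 bases before the start are shown for the 3 genes whose response to T cells differed between the intestinal sets (Ascl2, Axin2 and, from the first of its 2 listed starts, Rnf43) and for Olfm4, which of the 8 had the largest difference between the sets without T cells. Each is written in the direction of transcription with CG pairs in capitals. The starts are those of RefSeq. The Olfm4 and Rnf43 windows lie inside the gene spans of the count table, so they are not upstream of every counted exon.
Ascl2 (chr7:142969265-142969514, minus strand): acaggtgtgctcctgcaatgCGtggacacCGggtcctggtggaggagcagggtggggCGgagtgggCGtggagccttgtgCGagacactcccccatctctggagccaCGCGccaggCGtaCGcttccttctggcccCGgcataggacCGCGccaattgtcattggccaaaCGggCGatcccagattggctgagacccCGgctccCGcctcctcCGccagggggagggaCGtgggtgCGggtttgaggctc
Axin2 (chr11:108920099-108920348, plus strand): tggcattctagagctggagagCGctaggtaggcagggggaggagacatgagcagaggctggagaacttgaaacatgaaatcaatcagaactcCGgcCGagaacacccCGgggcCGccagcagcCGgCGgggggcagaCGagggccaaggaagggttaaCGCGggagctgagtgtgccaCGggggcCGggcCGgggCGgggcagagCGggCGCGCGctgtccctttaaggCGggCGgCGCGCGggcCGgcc
Rnf43 (chr11:87662837-87663086, plus strand): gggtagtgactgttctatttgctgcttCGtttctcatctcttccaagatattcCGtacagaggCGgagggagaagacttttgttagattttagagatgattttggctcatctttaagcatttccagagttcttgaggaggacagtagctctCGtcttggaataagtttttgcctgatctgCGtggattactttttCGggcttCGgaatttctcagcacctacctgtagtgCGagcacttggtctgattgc
Olfm4 (chr14:80000052-80000301, plus strand): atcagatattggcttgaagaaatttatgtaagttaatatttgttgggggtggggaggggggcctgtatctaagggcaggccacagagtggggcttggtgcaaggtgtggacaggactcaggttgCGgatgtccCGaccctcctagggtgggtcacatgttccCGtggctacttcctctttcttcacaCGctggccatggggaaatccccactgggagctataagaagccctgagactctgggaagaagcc
The windows hold 19, 24, 8 and 4 CG pairs, with a median of 6 over all starts, and 80.3, 88, 57 and 37.8% of all starts hold fewer. The words searched for the Tcf and Lef factors on either strand were CTTTGAA, then the same with AT as its last letters (CTTTGAT), with TA there (CTTTGTA) and with TT there (CTTTGTT). None was in these 4 windows. Among the genes with an entry, such a word was found once, 202 bases before the downstream of the 2 Tnfrsf19 starts, against 14.8% of all starts. The word TGGGAA of the Notch factor Rbpj (either strand) was found once, 12 bases before the Olfm4 start, and 21.6% of all starts hold it. A match is a description of letters and was not tested as a binding site.

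Without T cells, 7 of the 8 genes were higher in code SI than in code LI epithelium, and Znrf3 did not pass the test. Over all 14680 genes tested, 20% were called higher and 23% lower in code SI, or 43% in either direction (edgeR's quasi-likelihood test, Benjamini-Hochberg adjusted p under 0.05). In the same comparison 7 of the 8 had groups that did not overlap, against 27.1% of all genes in that direction. Olfm4 stood at 885, 1008 and 865 CPM in the 3 code SI BM libraries and at 0.746, 0.444 and 1.72 CPM in the code LI libraries. The ranges lie far apart, and the log2 difference was 9.82 ± 0.33 (standard error). Axin2 (2.27 ± 0.11), Smoc2 (2.32 ± 0.14), Tnfrsf19 (2.03 ± 0.27) and Lgr5 (1.61 ± 0.15) followed, then Ascl2 (1.09 ± 0.2) and Rnf43 (0.81 ± 0.12). For Znrf3 the difference was 0.19 ± 0.2 with a 95% interval of -0.24 to 0.62 and an adjusted p of 0.461.

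Levels of different genes were compared as CPM per kilobase of exon. In code SI BM, Olfm4 led at 310.4 ± 26.2 (SD, n = 3), followed by Smoc2 at 30.6 ± 0.636, Axin2 at 22 ± 1.55, Rnf43 at 10.2 ± 0.939, Ascl2 at 6.02 ± 1.45, Lgr5 at 2.03 ± 0.242, Znrf3 at 1.31 ± 0.169 and Tnfrsf19 at 0.523 ± 0.0422. No neighbours in that order overlapped between libraries. The code LI BM order was Smoc2 at 6.04 ± 1.18, Rnf43 at 5.76 ± 0.63, Axin2 at 4.51 ± 0.116, Ascl2 at 2.78 ± 0.347, Znrf3 at 1.13 ± 0.296, Lgr5 at 0.657 ± 0.103, Olfm4 at 0.327 ± 0.225 and Tnfrsf19 at 0.124 ± 0.0249. Smoc2 and Rnf43 overlapped there, as did Lgr5 and Olfm4. In liver BM, Rnf43 led at 7.07 ± 1.32, and Smoc2, Tnfrsf19, Znrf3 and Axin2, at 2.11 ± 0.453, 1.94 ± 0.618, 1.65 ± 0.476 and 1.34 ± 0.374, overlapped with their neighbours in that order.

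With T cells the order in code SI was Olfm4 at 96.2 ± 18.2, Smoc2 at 13.9 ± 2.07, Axin2 at 10.8 ± 2.36, Rnf43 at 4.81 ± 1.18, Ascl2 at 4.33 ± 0.868, Znrf3 at 0.759 ± 0.172, Lgr5 at 0.686 ± 0.0625 and Tnfrsf19 at 0.323 ± 0.145 CPM per kilobase. Smoc2 and Axin2, Rnf43 and Ascl2, and Znrf3 and Lgr5 overlapped as neighbours. In code LI BMT, Rnf43 (6.7 ± 0.836), Ascl2 (5.48 ± 1.94) and Axin2 (5.26 ± 1.9) overlapped at the top. Smoc2 (2.1 ± 1.12) and Znrf3 (0.712 ± 0.129) overlapped below them, then Lgr5 (0.0982 ± 0.052) and Tnfrsf19 (0.0866 ± 0.0282), with Olfm4 lowest at 0.0256 ± 0.0123. In liver BMT, Smoc2 was first at 10.5 ± 2.58 and Rnf43 followed at 5.37 ± 1.24 without overlap. Axin2 (1.57 ± 0.671) and Znrf3 (1.55 ± 0.185) overlapped, as did Lgr5 (0.623 ± 0.229), Tnfrsf19 (0.582 ± 0.0292) and Olfm4 (0.356 ± 0.382) in that order, and Ascl2 was at 0.

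**Figure D1:**
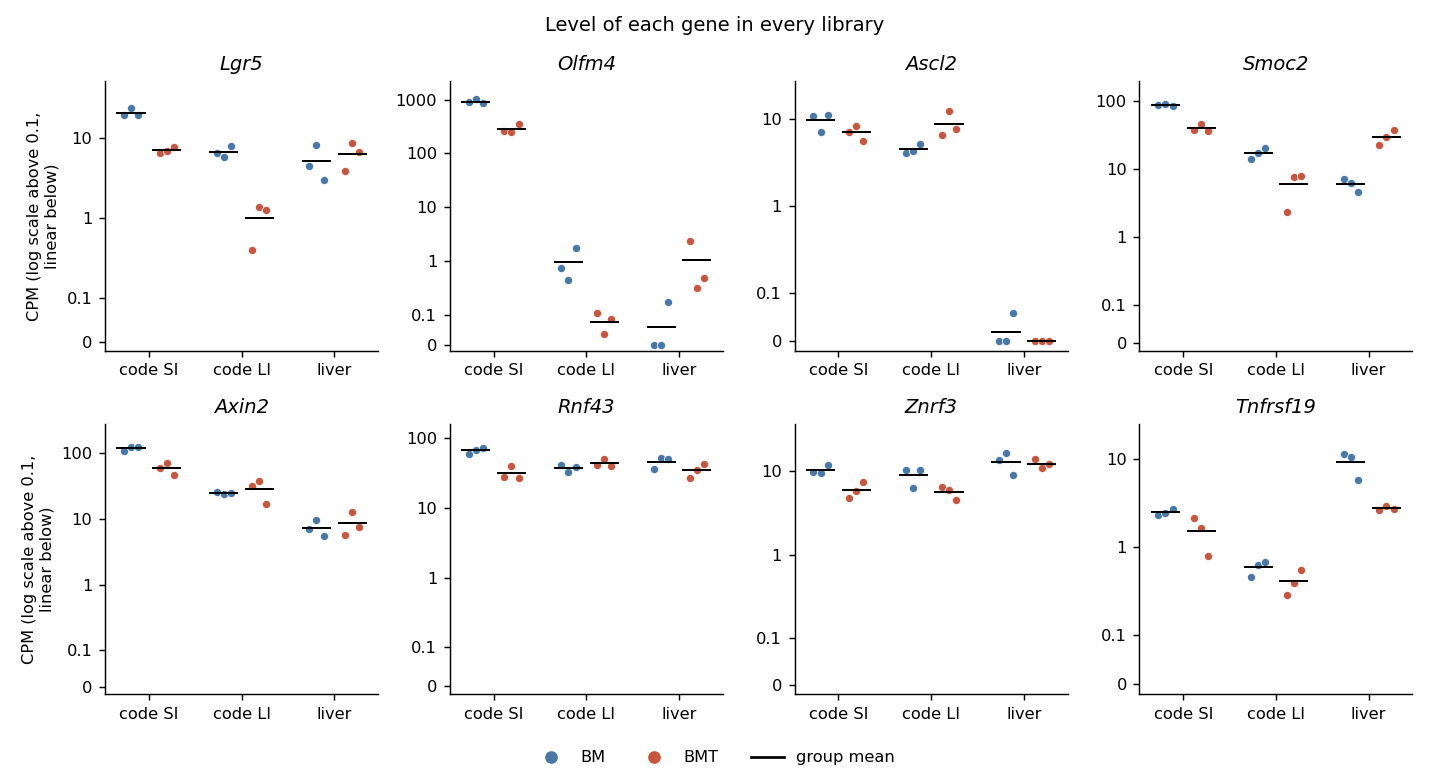
CPM of each gene in every library (points) with the group mean (line), by tissue and treatment, on an axis that is logarithmic above 0.1 and linear below. In code SI each BMT point of Lgr5, Olfm4, Smoc2, Axin2, Rnf43, Znrf3 and Tnfrsf19 lies below each BM point, whereas in code LI the Axin2 and Rnf43 groups overlap and Ascl2 is higher in BMT.

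In code SI epithelium, 6 of the 8 genes were lower with T cells and none was higher, against 11.8% lower and 11.6% higher of 14621 genes tested. The groups of 7 genes did not overlap, all lower in BMT, against 19.6% of all genes. The median log2 fold change of the 8 genes was -1.08, beside 0.02 over all genes tested. In these epithelial fractions fewer cells of a type and less RNA per cell cannot be told apart.

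Among the receptor and markers of crypt base stem cells, Lgr5 was at 19.4, 23.7 and 19.5 CPM in BM and at 6.52, 6.85 and 7.75 CPM in BMT. The groups lie apart with little spread inside each. Lgr5 was 3.02-fold lower (log2 fold change -1.59 ± 0.18, adjusted p = 0.000104 by edgeR), and 3.64% of all genes had a lower fold change. Olfm4 was at 885, 1008 and 865 CPM in BM and at 261, 247 and 347 CPM in BMT. It was 3.3-fold lower (-1.72 ± 0.17, adjusted p = 5.4e-05) and in BMT was still the highest of the 8 genes per kilobase. Smoc2 went from 87.3, 88.1 and 84.6 CPM to 36.5, 46.1 and 35.5 CPM, a 2.24-fold fall that separated all libraries (-1.16 ± 0.16, adjusted p = 0.000405).

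The feedback genes of the pathway were lower as well. Axin2 was at 111, 127 and 125 CPM in BM and at 59.3, 72.3 and 46.4 CPM in BMT. Every BMT library was below every BM library, and the fold was 2.07 (-1.05 ± 0.18, adjusted p = 0.00212). Rnf43 was at 60.4, 68.6 and 72.4 CPM in BM and at 27.5, 40.5 and 26.7 CPM in BMT, 2.16-fold lower with no overlap (-1.11 ± 0.19, adjusted p = 0.00187). Its relative Znrf3 was at 9.68, 9.49 and 11.9 CPM and at 4.75, 5.78 and 7.44 CPM, 1.77-fold lower (-0.82 ± 0.22, adjusted p = 0.0195). The Znrf3 call was lost without BM replicate 3 (adjusted p = 0.0865), BMT replicate 1 (0.0594) or BMT replicate 2 (0.0513).

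Neither Ascl2 nor Tnfrsf19 passed the test in code SI. Ascl2 was at 10.9, 7.06 and 11.3 CPM in BM and at 7.16, 8.38 and 5.57 CPM in BMT, with overlap at BM replicate 2. Its log2 fold change of -0.5 ± 0.25 had a 95% interval of -1.05 to 0.06 (adjusted p = 0.183). Tnfrsf19 was the lowest of the 8 genes per kilobase, at 2.29, 2.46 and 2.69 CPM in BM and 2.16, 1.63 and 0.795 CPM in BMT. These groups did not overlap, but the spread in BMT was wide and the log2 fold change of -0.72 ± 0.36 had an interval of -1.51 to 0.08 (adjusted p = 0.181).

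Markers of absorptive cells and of T cells rose alongside these falls. Of 15 genes of mature absorptive cells tested in code SI, 9 were higher and none lower (median 0.83), and 5 were higher without BM replicate 2. The list summed to 12152 to 14247 CPM in BM and 21230.2 to 33787 CPM in BMT, without overlap. The lipid transfer gene Mttp went from 394 ± 41.1 to 979 ± 86.5 CPM (1.28 ± 0.16, adjusted p = 0.000232), the carbonic anhydrase gene Car4 rose by 2.1 ± 0.26 on the log2 scale and the apolipoprotein gene Apoa4 went from 74.2 ± 38.6 to 574 ± 169 CPM (2.91 ± 0.39). The part of absorptive cells in the values of the 8 genes was not tested. All 14 T cell markers tested were called higher in code SI BMT, and Cd28, 1 of the 14, was at 0 in BM. Summed fibroblast markers were at 8.73 to 15.8 CPM in BM and 4.75 to 17.8 CPM in BMT, macrophage markers at 15.4 to 24.9 and 20.4 to 28.8 CPM, and neutrophil markers at 28.5 to 44.4 and 13.1 to 23.8 CPM. Most of the neutrophil sum in BM was Cd177, which went from 32.4 ± 8.23 to 8.43 ± 3.52 CPM. Of 5 neutrophil markers tested, 2 were called higher (Ltf and Ly6g) and 1 lower (Cd177), with a median log2 fold change of 1.25. Of 14 pan-epithelial genes, Cdh17 (0.82 ± 0.17) and Vil1 (0.68 ± 0.18) were higher and Elf3 (-0.92 ± 0.16) lower. When libraries were scaled to the summed counts of pan-epithelial genes, Lgr5, Olfm4, Smoc2, Axin2, Rnf43 and Znrf3 were again called lower, with log2 fold changes from -1.02 (Znrf3) to -1.91 (Olfm4). That scaling moved the median of all genes to -0.16 and the calls over all genes from 1700 higher and 1720 lower to 1059 and 2395.

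**Figure D2:**
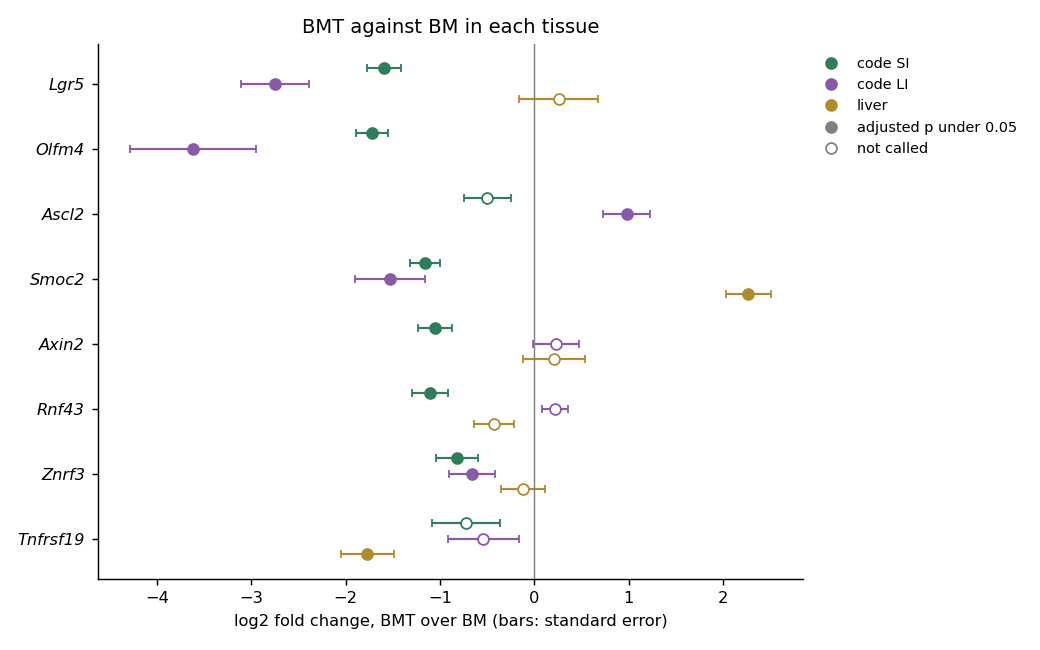
Log2 fold change of BMT over BM for each gene (points) with its standard error (bars) in code SI, code LI and liver, filled where the adjusted p was under 0.05. Lgr5, Olfm4, Smoc2 and Znrf3 are called lower in both intestinal sets, Axin2 and Rnf43 have filled points in code SI and open ones elsewhere, and Smoc2 is called higher in liver; Olfm4 and Ascl2 had too few counts in liver to be tested.

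In code LI epithelium the 8 genes divided. Lgr5, Olfm4, Smoc2 and Znrf3 were lower with T cells, Ascl2 was higher, and Axin2, Rnf43 and Tnfrsf19 did not pass the test. These 4 lower and 1 higher calls of 8 stand against 21% lower and 20.4% higher of 14880 genes tested. Groups without overlap were 3 lower (Lgr5, Olfm4 and Smoc2) and 1 higher (Ascl2), against 27.8% and 26% of all genes. The median log2 fold change was -0.6, beside 0 over all genes.

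Lgr5 was at 6.55, 5.81 and 7.89 CPM in code LI BM and at 0.393, 1.36 and 1.27 CPM in BMT. The lowest BM library was above all BMT libraries, and the fold was 6.72 (-2.75 ± 0.36, adjusted p = 0.000179). Smoc2 was at 13.8, 17.1 and 20.5 CPM in BM and at 2.29, 7.65 and 7.89 CPM in BMT, 2.9-fold lower (-1.53 ± 0.37, adjusted p = 0.00688). Both genes were lowest in BMT replicate 1. Olfm4 was scarce in this set, with 18, 12 and 53 counts in BM and 3, 1 and 2 counts in BMT. Its 83 and 6 counts give a ratio of 13.4 (95% counting interval 5.92 to 37.7, which covers counting error only), and the adjusted p was 0.00167.

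Ascl2 ran the other way in code LI, at 4.1, 4.29 and 5.16 CPM in BM and at 6.58, 12.5 and 7.63 CPM in BMT. All BMT libraries were above the BM libraries, with BMT replicate 2 the highest, and the fold was 1.97 (0.98 ± 0.25, adjusted p = 0.0104). The call was lost without BM replicate 1 (adjusted p = 0.052) and with the scaling to pan-epithelial genes (0.7, adjusted p = 0.105), which moved the median of all genes to -0.29. Of the 14 pan-epithelial genes 4 were themselves called higher in code LI, among them Krt18 (1.02 ± 0.14), Cdh17 (0.49 ± 0.13) and Vil1 (0.6 ± 0.16), and 2 lower. Some T cells also express Ascl2. All 14 T cell markers, of which Cd5 and Cd28 were at 0 in BM, were called higher in code LI BMT, with 4 of 5 neutrophil markers tested (sum 149 to 185 up to 575 to 1134 CPM) and 7 of 9 macrophage markers (41.4 to 45.5 up to 56.2 to 95.6 CPM). Their part in the Ascl2 value was not tested. Calls over all genes went from 3033 higher and 3124 lower to 1580 and 4264 with that scaling.

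Axin2 and Rnf43 had no call in code LI. Axin2 was at 25.5, 24.3 and 24.6 CPM in BM and at 32.3, 37.4 and 17.2 CPM in BMT. The tight BM group lies inside the BMT range, and the log2 fold change was 0.23 ± 0.24 (95% interval -0.3 to 0.76, adjusted p = 0.475). BMT replicate 3 set that spread: without it Axin2 was called higher (0.51, adjusted p = 0.00471). That library was also the only one of the set on another sequencing lane, and the part of the lane was not tested. Rnf43 was at 41.4, 33.3 and 38.7 CPM in BM and at 41.1, 50.2 and 40.4 CPM in BMT, which overlap, with a log2 fold change of 0.22 ± 0.14 (interval -0.09 to 0.53, adjusted p = 0.236). With the scaling to pan-epithelial genes these values were -0.01 for Axin2 and -0.07 for Rnf43.

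Znrf3 was at 10.2, 6.25 and 10.4 CPM in code LI BM and at 6.47, 5.9 and 4.5 CPM in BMT. BM replicate 2 overlaps the BMT group, and the fall of -0.66 ± 0.24 had an adjusted p of 0.0447. This call was lost without BM replicate 1 (0.154), BM replicate 3 (0.168), BMT replicate 2 (0.0923) or BMT replicate 3 (0.083). It also depended on the scaling, and was lost with library size alone (adjusted p = 0.0629) and with RLE size factors (0.0508). Tnfrsf19 was at 0.456 to 0.682 CPM in BM and 0.286 to 0.551 CPM in BMT, or 8 to 21 counts per library, and its log2 fold change of -0.54 ± 0.38 had an interval of -1.39 to 0.31 (adjusted p = 0.285).

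The difference of the T cell effect between the sets (code SI log2 fold change minus code LI) was tested for all 15815 genes in 1 fit over the 12 intestinal libraries. The numbers in the descriptions recur in both sets and may be mouse numbers, which the labels do not say. This fit treated the libraries as independent. Of the 8 genes, 3 were called, all with a lower value in code SI, against 3.42% of all genes lower and 3% higher, or 6.42% in either direction. Rnf43 differed by -1.35 ± 0.25 (adjusted p = 0.0057), Ascl2 by -1.49 ± 0.37 (adjusted p = 0.0278) and Axin2 by -1.3 ± 0.33 (adjusted p = 0.0295). Rnf43 remained called when each of the 12 libraries was left out in turn, with values of -1.21 to -1.58. The Ascl2 call was lost in 6 of these 12 fits, without code LI BM replicate 1 or 2, code LI BMT replicate 2, code SI BM replicate 1 or 3, or code SI BMT replicate 3 (adjusted p of 0.0617 to 0.0762). The Axin2 call was lost in 8 (0.0564 to 0.0742) and kept without code LI BMT replicate 3, code SI BM replicate 1, or code SI BMT replicate 1 or 2. The difference was 1.14 ± 0.4 for Lgr5 (95% interval 0.29 to 1.99) and 1.9 ± 0.7 for Olfm4 (0.41 to 3.39), toward a larger fall in code LI, and neither was called (adjusted p = 0.104 and 0.122). DESeq2 called both (adjusted p = 0.0228 and 0.0476). Smoc2, Znrf3 and Tnfrsf19 differed by 0.35 ± 0.42, -0.17 ± 0.33 and -0.2 ± 0.55.

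**Figure D3:**
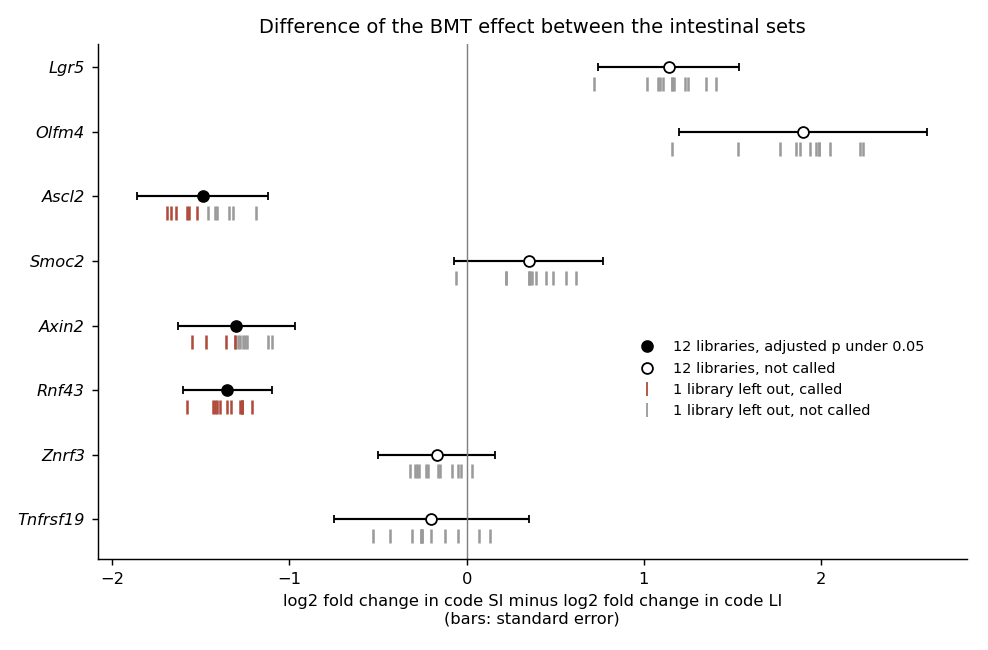
Difference of the log2 fold change of BMT over BM between code SI and code LI for each gene, from all 12 libraries (points, standard error as bars, filled where the adjusted p was under 0.05) and with each library left out in turn (ticks, red where called). All ticks of Rnf43, Ascl2 and Axin2 lie below 0, and only those of Rnf43 are all called.

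In liver, 6 of the 8 genes had enough counts to be tested, with 1 higher and 1 lower, against 7.46% higher and 3.35% lower of 14134 genes. The same 1 higher and 1 lower had groups that did not overlap, against 19.2% and 13.2% of all genes. Smoc2 was at 7.19, 6.13 and 4.64 CPM in BM and at 22.6, 29 and 37.2 CPM in BMT. All BMT libraries were well above the BM libraries, 4.83-fold in the fit (2.27 ± 0.24, adjusted p = 0.00222), the opposite direction to both intestinal sets. Of 10 fibroblast markers tested in liver, 5 were called higher (Col1a1, Col1a2, Pdgfra, Col6a1 and Col6a2), and their list summed to 176 to 301 CPM in BM and 252 to 290.1 CPM in BMT. Their part in the Smoc2 value was not tested. Tnfrsf19 went from 11.3, 10.5 and 5.86 CPM to 2.63, 2.9 and 2.74 CPM, a 3.4-fold fall with a very narrow BMT group (-1.77 ± 0.28, adjusted p = 0.00826).

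The feedback genes and Lgr5 had no call in liver. Lgr5 was at 2.96 to 8.15 CPM in BM and 3.91 to 8.59 CPM in BMT, Axin2 at 5.45 to 9.54 and 5.73 to 12.8 CPM, Znrf3 at 9.04 to 16.5 and 10.9 to 13.8 CPM, and Rnf43 at 36.4 to 51.5 and 27 to 43.3 CPM. The groups of all 4 overlap. Their 95% intervals ran from -0.7 to 1.22 for Lgr5, -0.57 to 0.98 for Axin2, -0.66 to 0.42 for Znrf3 and -0.92 to 0.05 for Rnf43. Of 16 pericentral genes, the zone in which such targets are expressed, Slc13a3 was called higher and Cyp1a2 lower. Over all genes tested in liver, 7.46% were higher and 3.35% lower. Olfm4 had 0, 0 and 3 counts in BM and 35, 5 and 7 counts in BMT, a ratio of 16.9 over the groups (95% counting interval 5.44 to 84.9), with most counts in BMT replicate 1. Olfm4 is also a granule protein of some neutrophils, and all 13 neutrophil markers were called higher in liver, their sum going from 18.5 to 30.4 CPM up to 225 to 1049.5 CPM. Their part in the Olfm4 counts was not tested. Ascl2 had 1 count in BM and none in BMT.

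Other genes of the crypt base were mostly lower in code SI and divided in code LI. List counts of BMT against BM, here and below, stand against 11.8% lower and 11.6% higher of all genes in code SI. In code LI those shares were 21% and 20.4%. Of 23 other stem cell genes tested in code SI, 14 were lower and none was higher (median -0.77). They included Clca3b, from 659 ± 57 to 173 ± 26.6 CPM (-1.96 ± 0.17, adjusted p = 2.28e-05), the potassium channel subunit Kcne3, from 100 ± 10.1 to 48.7 ± 4.93 CPM (-1.06 ± 0.16), and the ion cotransporter Slc12a2, from 297 ± 47 to 133 ± 26.2 CPM (-1.19 ± 0.19). In code LI 9 of 23 were lower and 4 higher (median -0.26). The water channel Aqp4 fell from 335 ± 7.22 to 23.7 ± 7.11 CPM (-3.82 ± 0.22, adjusted p = 5.65e-07) and Cttnbp2 from 5.95 ± 1.4 to 0.268 ± 0.14 CPM (-4.46 ± 0.37). Phlda1 rose from 17.6 ± 1.3 to 52.2 ± 7.47 CPM (1.57 ± 0.15), with Fgfr4, Igfbp4 and Scn2b also higher. The difference between the sets was called for 11 of 24 of these genes, 9 lower and 2 higher in code SI. Over all genes that test called 3.42% lower and 3% higher. Among the 11 were Phlda1 (-1.78), Clca3b (-1.63) and, in the other direction, Aqp4 (2.16).

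Upstream of the targets, the secretion gene Wls and 6 or 7 of 12 receptor genes tested were lower with T cells. Wls, which carries Wnt proteins to the cell surface, went from 59.9 ± 12.3 to 18.3 ± 3.22 CPM in code SI (-1.74 ± 0.19, adjusted p = 0.00011) and from 68.5 ± 1.34 to 27.9 ± 1.86 CPM in code LI (-1.29 ± 0.12, adjusted p = 1.72e-05). Wnt3, a ligand made by Paneth cells, fell in code SI from 8.94 ± 0.358 to 3.75 ± 0.296 CPM (-1.28 ± 0.2) and was at 0.514 ± 0.192 and 0.669 ± 0.254 CPM in code LI, a difference of -1.69 ± 0.43 between the sets (adjusted p = 0.0323). Most ligand genes were too low to test, with 4 of 23 tested in code SI and 5 in code LI, and the R-spondin genes Rspo2 and Rspo3 had no count in either set, below the floor of 3 counts. Of 12 receptor genes tested, 6 were lower in code SI and 7 in code LI, and none was higher. Fzd1, Fzd5, Lgr4 and Ror2 were lower in both. The Frizzled genes Fzd2 (-2.13 ± 0.44) and Fzd9 (-1.93 ± 0.44) and the co-receptor gene Ror2 (-1.25 ± 0.29) had the smallest p in code SI among called receptors averaging 1 CPM or more without overlap, while in code LI these were Lgr4 (-1.35 ± 0.14), Fzd4 (-2.94 ± 0.41) and Fzd1 (-1.15 ± 0.19). Lgr4, a close relative of Lgr5, fell by 0.48 on the log2 scale in code SI and by 1.35 in code LI, a difference of 0.85 (adjusted p = 0.018). Without BMT replicate 2 the code SI count was 3. Of 18 genes that carry the signal to the nucleus none was called in code SI, and in code LI 3 were higher (Axin1, Gsk3a and Bcl9) and 3 lower (Apc, Btrc and Amer1). Both code LI shares were below the 20.4% higher and 21% lower of all genes tested there. Among inhibitors, Sfrp5 and Tle3 were lower in code SI, and none of 5 was called in code LI.

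Of the other Wnt target genes, 9 of 15 tested were not called in code SI and 8 of 14 were not called in code LI. The called genes differed between the sets except for Lef1, and no gene was called in opposite directions. In code SI 5 of 15 were lower (Sp5, Sox9, Ephb2, Ephb3 and Bambi) and Lef1 was higher (median -0.39). Sox9, a transcription factor of crypt cells, went from 41.2 ± 5.34 to 18 ± 1.78 CPM (-1.22 ± 0.16, adjusted p = 0.000387) and the receptor-like gene Bambi from 6.16 ± 0.479 to 1.49 ± 0.64 CPM (-2.08 ± 0.32). In code LI 6 of 14 were higher (Lef1, Tcf7, Myc, Ccnd1, Cd44 and Ccnd2) and none was lower (median 0.15), and with the scaling to pan-epithelial genes 3 were higher and 2 lower. The adhesion receptor gene Cd44 rose from 70.7 ± 6.8 to 157 ± 32.6 CPM (1.16 ± 0.17, adjusted p = 0.000367) and the cyclin gene Ccnd2 from 104 ± 8.51 to 196 ± 30.1 CPM (0.93 ± 0.14). Lef1, Tcf7, Cd44 and Ccnd2 are also T cell genes, Lef1 was at 0.0523 ± 0.0455 CPM in code LI BM and 3.66 ± 2.04 CPM in BMT, and the part of T cells in these values was not tested. The difference between the sets was called for 5 of 16, all lower in code SI, against 3.42% of all genes lower. These were Tcf7 (-1.74), Myc (-1.22), Sox9 (-0.88), Bambi (-2.07) and Ccnd2 (-0.99).

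**Figure D4:**
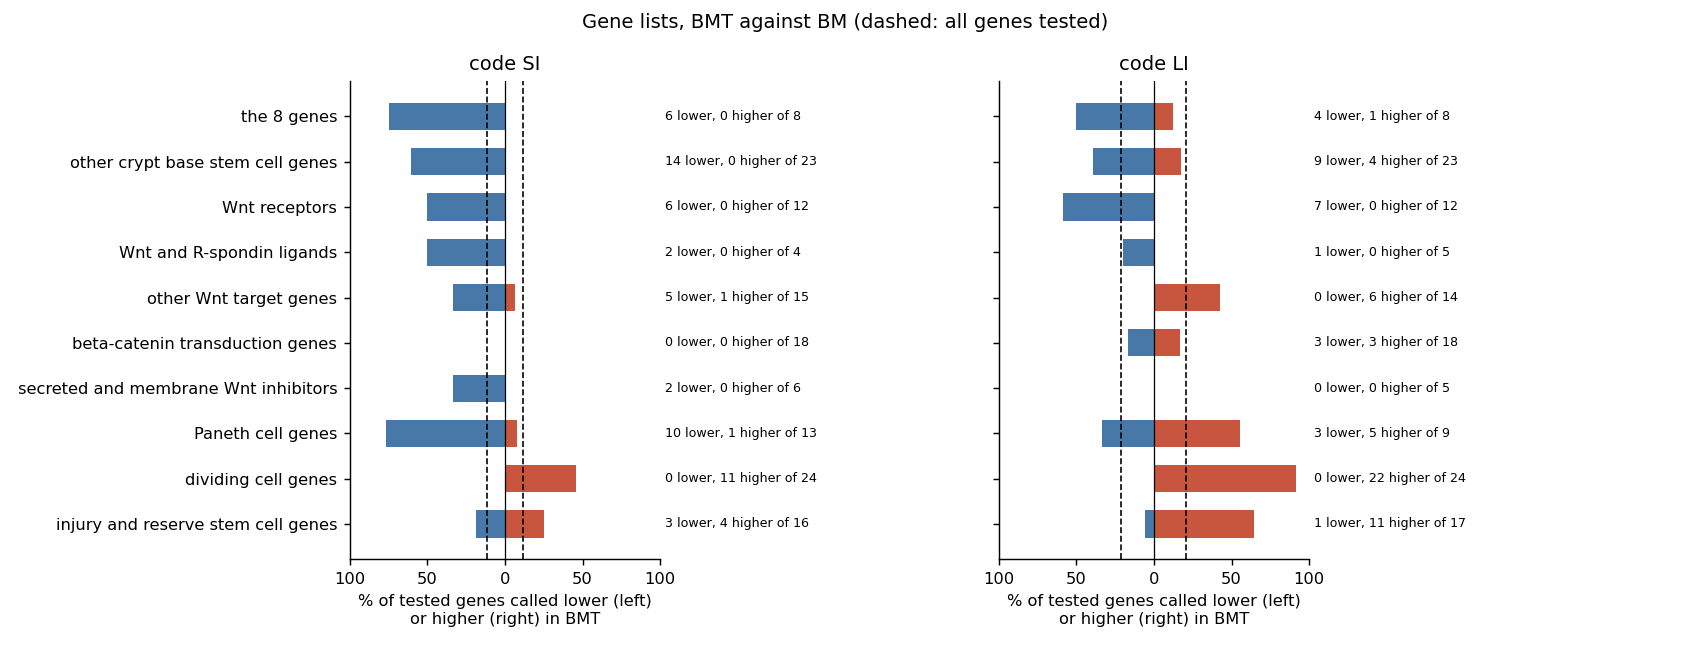
Share of tested genes of each list called lower (left, blue) or higher (right, red) in BMT in code SI and code LI, with the counts written beside each bar and dashed lines for all genes tested. In code SI the 8 genes, other stem cell genes, Paneth cell genes, receptors and ligands (2 of only 4 tested) reach furthest to the left. In code LI dividing cell genes reach furthest to the right with 22 of 24.

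Neighbours and products of the stem cells gave further contrasts. Paneth cells sit between the stem cells of the small intestine. Of 13 genes of a Paneth cell list tested in code SI, 10 were lower and Guca2b higher. Which cells express each gene of the list was not tested. The lysozyme gene Lyz1 went from 5077 ± 1104 to 778 ± 215 CPM (-2.73 ± 0.26, adjusted p = 3.8e-05). The defensin genes Defa26 (-3.21 ± 0.27) and Defa30 (-3.15 ± 0.35) fell as well. The list summed to 15264 to 23229 CPM in BM and 3660.2 to 7783 CPM in BMT. In code LI the list genes Defa21, Defa22, Defa23 and Defa26 had no count in BM or BMT. Of 9 list genes tested there, 5 were higher (Mmp7, Ang4, Itln1, Pla2g2a and Guca2b) and 3 lower (Lyz1, Cd24a and Kit). Ang4 rose from 7.15 ± 4.66 to 524 ± 111 CPM (6.19 ± 0.41), with Itln1 at 2.85 ± 0.26 and Kit at -1.75 ± 0.17. Of 15 absorptive cell genes 5 were higher and 5 lower in code LI (median 0.12), and the list summed to 14225 to 15296 CPM in BM and 9591 to 13979.9 CPM in BMT. The chloride exchanger gene Slc26a3 (-0.99 ± 0.12) and the peptidase gene Anpep (-1.78 ± 0.23) fell there. Apoa4 rose (6.25 ± 0.96) from 0.106 ± 0.057 CPM, below the floor of 3 counts, to 8.59 ± 7.95 CPM, with a wide spread in BMT.

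Notch and BMP signals act on the same cells. Of 12 Notch genes tested in code SI, 2 were higher (Mfng and Rbpj) and 4 lower (Dll1, Hes1, Notch2 and Atoh1), with a median of -0.53. With each library left out in turn 1 was higher, and 2 were lower without BM replicate 2 or BMT replicate 1. In code LI 5 were higher (Mfng, Lfng, Rbpj, Notch2 and Jag2) and 3 lower (Hes1, Dll1 and Dll4), with a median of 0.03. The lower count there was 5 without BMT replicate 3, and 1 when BMT replicate 1, BMT replicate 2 or BM replicate 1 was left out. With the scaling to pan-epithelial genes 1 was higher and 7 lower in code SI, and 2 and 5 in code LI. Mfng, a glycosyltransferase that modifies Notch receptors, went from 0.177 ± 0.0491 to 2.77 ± 0.988 CPM in code SI (3.91 ± 0.43, adjusted p = 9.8e-05) and from 0.182 ± 0.0147 to 5.37 ± 0.8 CPM in code LI (4.85 ± 0.31). Its BM levels were close to the floor of 3 counts. All 14 T cell markers were also called higher in BMT in both sets, and the part of T cells in the Mfng values was not tested. Lfng, a relative of Mfng, rose in code LI (1.08 ± 0.17). Hes1, a target of Notch, went from 51.9 ± 1.71 to 31.5 ± 2.98 CPM in code SI (-0.75 ± 0.15) and from 69 ± 2.31 to 33.3 ± 7.59 CPM in code LI (-1.05 ± 0.16), and the ligand gene Dll1 was lower in code SI (-1.02 ± 0.16) and in code LI (-0.9 ± 0.26). Of 11 BMP genes in code SI, Id2 (0.76 ± 0.2) was higher and Bmp7 (-0.97 ± 0.2) lower, and no gene was higher when BM replicate 2, BM replicate 3 or BMT replicate 1 was left out. Without BMT replicate 3 the lower count was 3. Of 13 in code LI, 2 were higher (Id2, 1.48 ± 0.19, and Chrd, 1.78 ± 0.36) and 5 lower, among them Smad6 (-1.43 ± 0.29), and without BM replicate 1 the lower count was 3. Over all genes tested, 11.6% were higher and 11.8% lower in code SI, and 20.4% and 21% in code LI.

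Genes of dividing cells did not fall with the stem cell markers. In code SI 11 of 24 were higher and none lower (median 0.6), as with Rrm2, a subunit of ribonucleotide reductase, from 40.9 ± 4.02 to 97 ± 27.9 CPM (1.23 ± 0.22), with Tpx2 (0.87 ± 0.19) and Ccnb1 (1.1 ± 0.25). That count was 3 without BM replicate 2, 5 without BMT replicate 1, 19 without BMT replicate 3 and 3 with the scaling to pan-epithelial genes. In code LI 22 of 24 were higher (median 1.07), or 14 with that scaling, and Rrm2 went from 32.3 ± 3.61 to 114 ± 23.9 CPM (1.82 ± 0.18), with Mcm5 (1.37 ± 0.12) and Aurka (1.35 ± 0.13). Dividing T cells also express these genes, and their part was not tested. Of genes induced in injured epithelium or held by reserve stem cells, 4 were higher (Ly6a, Il33, Areg and Ereg) and 3 lower (Ccn1, Tert and Krt15) of 16 in code SI, and 11 higher and 1 lower (Ccn1) of 17 in code LI. Ly6a, a surface gene of regenerating epithelium that T cells also express, went from 9.54 ± 4.22 to 385 ± 153 CPM in code SI (5.32 ± 0.41) and from 150.1 ± 11.5 to 1594 ± 336 CPM in code LI (3.41 ± 0.17). Among others of the list, Ccn1 (-2.23 ± 0.16) and Areg (1.22 ± 0.21) were called in code SI, and Il1rn (1.77 ± 0.2) and Anxa3 (0.96 ± 0.12) in code LI.

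The genes whose pattern over the 12 intestinal libraries was most like that of Lgr5, out of 9250 searched, were Fgfr2 and Lgals12 (Pearson r = 0.99 each), Cyp2c68 (0.98), Ccdc91 and Slc5a6 (0.97 each). Those most like Olfm4 were Sdr42e1, Egfr, Galnt4 and Acpp (0.95 each) and Slc18b1 (0.94). All 10 had negative log2 fold changes in both sets, for example -1.06 and -1.67 for the growth factor receptor gene Fgfr2. Those most like Axin2, out of 9249, were Rnaseh1 and Snhg17 (0.94 each) and Mycl, Bend3 and Nr4a1 (0.92 each), and the nuclear receptor gene Nr4a1 had log2 fold changes of -1.48 in code SI and 0.08 in code LI. The values are log2 CPM centred within each set. The libraries share the split into BM and BMT, which enters every r, so these are descriptions with no test.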

How the data were processed

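PolyA-selected RNA was sequenced with a stranded kit, per the labels' protocols. For 18 libraries, the table that the authors deposited holds raw read counts of genes as whole numbers. Per the submitters' processing notes, the tools were featureCounts 1.6.3, STAR 2.7.0e and FastQC 0.11.9, with GRCm38.p5 as the build. Neither the annotation release nor whether counting used strand is stated in the labels. Gene names were matched for 53274 of 53379 identifiers through a supplied table of gene identifiers and symbols, and 0.00257% of counts lay outside them. Gene positions and exonic lengths are those of the deposited table. The opposite-strand gene Gm11670 shares 3.8% of Axin2 exon bases, and its highest level was 0.203 CPM.

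Groups followed the treatment labels and the tissue codes of the descriptions. Replicates of a group differed beyond sampling noise (chi-square per degree of freedom 9.86 to 187). The labels do not say that they are separate animals, and the spread behind each p-value may be technical. Each comparison was fitted with edgeR 4.0.16 in R 4.3.3 on its own libraries, with its filter on low counts (minimum count 10), TMM scaling and a two-sided F-test of the quasi-likelihood fit, and calls were made at a Benjamini-Hochberg adjusted p of 0.05 over all genes tested. CPM uses TMM-scaled library sizes. Each ± on CPM is a standard deviation with n = 3 and each ± on a log2 fold change a standard error. The scripts were tested on simulated counts.

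The 8 genes and the gene lists were chosen with earlier results of these data known. Of each pathway list the 3 genes with the smallest p were named per intestinal comparison, among calls with groups that did not overlap and a mean of at least 1 CPM. Other list members that are named, such as those of counts of 5 or fewer, were chosen after their values were seen. Likeness used the highest Pearson r among genes of at least 5 CPM in both sets. The alternatives tried were DESeq2 1.42.0, other scalings and filters, a joint fit, blocks, 1 lane and leaving out each library.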

Additional observations from a re-analysis of the deposited data

Results flagged for a closer look

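Of the 8 genes, 3 were set apart by the test of the T cell effect between the intestinal sets (code SI log2 fold change minus code LI). The difference was -1.49 for Ascl2, -1.3 for Axin2 and -1.35 for Rnf43. Side by side, the log2 fold changes in code SI and code LI were -0.5 and 0.98 for Ascl2, -1.05 and 0.23 for Axin2, and -1.11 and 0.22 for Rnf43, and what each set adds to the difference was not tested. T cell markers were higher in BMT in both sets, with sums of 171 to 258 CPM in code SI and 347 to 504 CPM in code LI, and their part in these differences was not tested.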

How the results depend on the processing

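Of 510 values of the 8 genes under the alternatives, 463 kept their direction and side of the threshold, 28 lost a call, 6 gained one and 13 changed sign. Other named genes kept theirs in 903 of 924, lost a call in 21 and changed sign in none. The fit on 1 lane left out only BMT replicate 2 in code SI and only BMT replicate 3 in code LI. It repeats the fits without those libraries, so their values enter these counts again. The cause of a change was not tested.

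Scaling to pan-epithelial genes gave 1059 genes higher in code SI and 1580 in code LI, with 0 of the 8 genes higher there. In liver, library size alone moved the median of all genes to -0.2 and the calls from 1055 higher and 473 lower to 812 and 1183, and DESeq2 gave 767 lower. Without a filter, 2 of the 8 were higher in liver, since Olfm4 was then tested (3.89, adjusted p = 0.018). On 1 lane, which in code LI is the same fit as without BMT replicate 3, 2 were higher in code LI. For the difference between the sets, DESeq2 gave 839 genes and 2 of the 8 (Lgr5 and Olfm4) higher, and no filter 939 higher, 987 lower and the same 2.

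Uncalled values that changed sign were, in code LI with pan-epithelial scaling, Axin2 -0.01 and Rnf43 -0.07. In liver they were Lgr5 -0.3 and Axin2 -0.37 on 1 lane, Znrf3 0.07 without BM replicate 2, and Lgr5 -0.02 without BM replicate 3. Without BMT replicate 2 they were Lgr5 -0.01 and Axin2 -0.19. Over all alternatives the liver values reached up to 0.73 for Lgr5, 0.43 for Axin2 and down to -0.33 for Znrf3. In the difference the values that changed sign were Znrf3 0.03 without code LI BM replicate 2 and Smoc2 -0.06 without code LI BMT replicate 1. Tnfrsf19 was at 0.07 without code LI BMT replicate 3 and 0.13 without code SI BMT replicate 3. Over all alternatives these 3 genes had ranges of -0.32 to 0.03, -0.06 to 0.62 and -0.53 to 0.13 in turn. Between sets in BM it was Znrf3 -0.01 without code LI BM replicate 2, in a range up to 0.33.

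Leaving out each library gave 1030 to 1913 genes higher and 1056 to 1862 lower in code SI, 2464 to 3667 and 2357 to 3553 in code LI, 459 to 1556 and 110 to 1061 in liver, 261 to 1056 and 281 to 788 for the difference, and 2362 to 3018 and 2696 to 3250 between sets in BM. Of the 8 genes it gave 5 to 6 lower in code SI, 3 to 4 lower and 0 to 2 higher in code LI, 1 and 1 in liver, 1 to 3 lower for the difference and 7 higher between sets. The code SI counts moved by over 1.5 times without BM replicate 1 (1121 lower) and BM replicate 2 (1030 higher and 1056 lower). The liver counts did so without BM replicate 2 (519 and 162), BM replicate 3 (1061 lower), BMT replicate 1 (554 and 178), BMT replicate 2 (459 and 110) and BMT replicate 3 (232 lower). The counts for the difference did so without code LI BM replicate 1 (283 and 307), 2 (261 and 281) and 3 (269 and 306), code LI BMT replicate 2 (295 higher), code SI BM replicate 1 (322 lower) and 3 (294 and 330), and code SI BMT replicate 2 (1056 higher).

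With a replicate block by the number in the titles, 1500 genes were higher and 1528 lower in code SI and 2637 and 2730 in code LI, and the Znrf3 call in code LI was lost (-0.65, adjusted p = 0.0723); no other call of the 8 genes changed. Same-numbered libraries correlated at -0.27 to 0.46 in their deviations, best with their own number in 4 of 9 pairs. A replicate block by the number in the descriptions changed no call of the 8 genes (r of -0.24 to 0.38, best in 1 of 6). Low counts limit Tnfrsf19 and Olfm4 in code LI and Olfm4 and Ascl2 in liver.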
